A study of Mus musculus with 194 samples.

Results

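Gja1, Gjb2 and Gjb6, the genes of connexins Cx43, Cx26 and Cx30, were followed across all groups of a calling card study of the mouse brain. Calling cards record where a transposase inserts a transposon into TTAA sequences of the genome. The members were chosen by name and by measured values: insertions in the body of each gene with 10 kb on each side, on a per-million scale of all insertions of a table (CPM), in earlier results of these data. Their levels and fold changes are therefore given as a description, without a test. Where a connexin is said to be past the threshold of an edgeR comparison, that is a description too. They are 3 of 21627 protein-coding gene loci.

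Per the labels, adeno-associated virus was injected at birth or on the day after, and 47 deposited tables cover 46 animals in 11 groups and the neuroblastoma line N2a. C57bl6J animals (n = 2) received Cre-independent viruses. The remaining cortex groups read from RNA were Syn1Cre, a neuronal Cre line, and its Cre-negative group Syn1CreNeg, GFAPCre, an astrocyte Cre line, and GFAPCreNeg (n = 6 each), the Frontflip construct in GFAPCre and GFAPCreNeg animals (n = 3 each), and SP1 in Syn1Cre animals at P28 (n = 4) and P10 (n = 3). Neither the SP1 construct nor the virus of the Cre groups is described in the labels, which give an age only for the SP1 groups. Rbp4Cre TRAP (n = 4) came from whole forebrain, BrokenHeart (n = 3) was read from DNA by inverse PCR, and N2a is 1 table of pooled experiments. Each cortex read from RNA was taken in 10 parts and combined into 1 table. A table held 2341 to 2186559 insertions on chromosomes 1 to 19 and X.

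Connexins assemble in sixes into hemichannels, and the hemichannels of neighbouring cells dock into gap junctions that pass ions and small molecules. In the brain, Cx43 and Cx30 are the main connexins of astrocytes, which they couple into networks that spread potassium and metabolites. Cx26 is also reported in astrocytes and in the coverings of the brain, and Gjb2 and Gjb6 are neighbours that are both known for their part in hearing.

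Gja1 (gene ID 14609) lies on the plus strand at chr10:56377300-56390419, Gjb2 (gene ID 14619) on the minus strand at chr14:57098602-57104702, and Gjb6 (gene ID 14623) on the minus strand at chr14:57123301-57133611, in GRCm38. Gjb2 and Gjb6 lie 18598 bases apart, and their loci share 1402 bases, so 84 insertions count for both genes. The 250 bases before each gene start, from RefSeq with build GRCm38.p6, are shown because insertions near the start are compared between groups further on. Capitals mark TTAA, where the transposon can insert, and the GC box GGGCGG or its reverse complement CCGCCC, the core of the sequence that SP1 binds.
Gja1: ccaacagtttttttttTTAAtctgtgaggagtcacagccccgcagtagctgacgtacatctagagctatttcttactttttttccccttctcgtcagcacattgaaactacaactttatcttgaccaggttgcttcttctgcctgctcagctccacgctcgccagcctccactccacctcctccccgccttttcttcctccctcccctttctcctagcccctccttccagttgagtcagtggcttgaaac
Gjb2: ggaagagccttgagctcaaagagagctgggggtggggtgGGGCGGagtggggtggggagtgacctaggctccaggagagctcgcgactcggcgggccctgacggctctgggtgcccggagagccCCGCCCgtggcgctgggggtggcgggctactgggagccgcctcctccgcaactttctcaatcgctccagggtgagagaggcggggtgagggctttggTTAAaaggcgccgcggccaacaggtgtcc
Gjb6: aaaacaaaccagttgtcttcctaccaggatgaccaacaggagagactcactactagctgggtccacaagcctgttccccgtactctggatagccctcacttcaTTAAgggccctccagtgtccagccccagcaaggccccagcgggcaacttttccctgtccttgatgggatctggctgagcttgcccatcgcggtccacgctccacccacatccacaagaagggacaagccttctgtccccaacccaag
The windows are chr10:56377050-56377299, chr14:57104703-57104952 and chr14:57133612-57133861, each written in the direction of its gene. TTAA was present once in each, and in 49.0% of 32851 promoter windows of this length. GGGCGG and CCGCCC were each present once before Gjb2, and neither was in the windows of Gja1 and Gjb6. On either strand it was in 32.7% of the same promoter windows.

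These 3 TTAA sites took very different numbers of insertions. The site before Gjb6 (chr14:57133755-57133758, at -144 from the start, counted at the leftmost base) had 291 insertions in 38 tables, more than any other position of that locus. The site before Gjb2, at -26 from its start, had 1 insertion, in a Syn1Cre animal. The site before Gja1, at -234 from its start, had 11 insertions in 11 tables.

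The Gja1 locus held 1767 insertions at 152 positions. Of these, 82.0% lay in the gene body and 73.9% in the first 5 kb after the start. The 5 most used positions lay between 113 and 1530 bases after the start, led by chr10:56378830-56378833 with 172 insertions in 33 tables and chr10:56378176-56378179 with 166 insertions in 35 tables. The orientation was uneven. On the minus strand lay 70.7% of Gja1 insertions, against 49.7% to 51.9% of all insertions of a table. At the site 207 bases after the start 118 of 121 insertions were on the minus strand, and at the site 876 bases after it 155 of 166.

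The Gjb6 locus held 2085 insertions at 96 positions in several clusters. Within 1 kb of the start lay 33.3%, and 30.4% lay past the end of the gene, mainly at chr14:57115844-57115847 (236 insertions in 41 tables) and chr14:57115258-57115261 (141 insertions in 34 tables). These downstream sites sit between Gjb6 and Gjb2, 17767 and 18353 bases after the Gjb6 start. The strands again differed by cluster. At the promoter site 258 of 291 insertions were on the plus strand, and at the first downstream site 204 of 236 were on the minus strand.

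The Gjb2 locus was the least used, with 443 insertions at 61 positions. Before the gene start, on the side of Gjb6, lay 80.6% of them, and 7.90% lay in the gene body. A single site at -4614 from the start, chr14:57109316-57109319, held 129 insertions in 35 tables. Within 1 kb of the Gjb2 start there were 9 insertions over all tables. Most of the signal counted for Gjb2 therefore lay in the stretch between the neighbouring genes, and no value here assigns those sites to either gene.

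**Figure D1:**
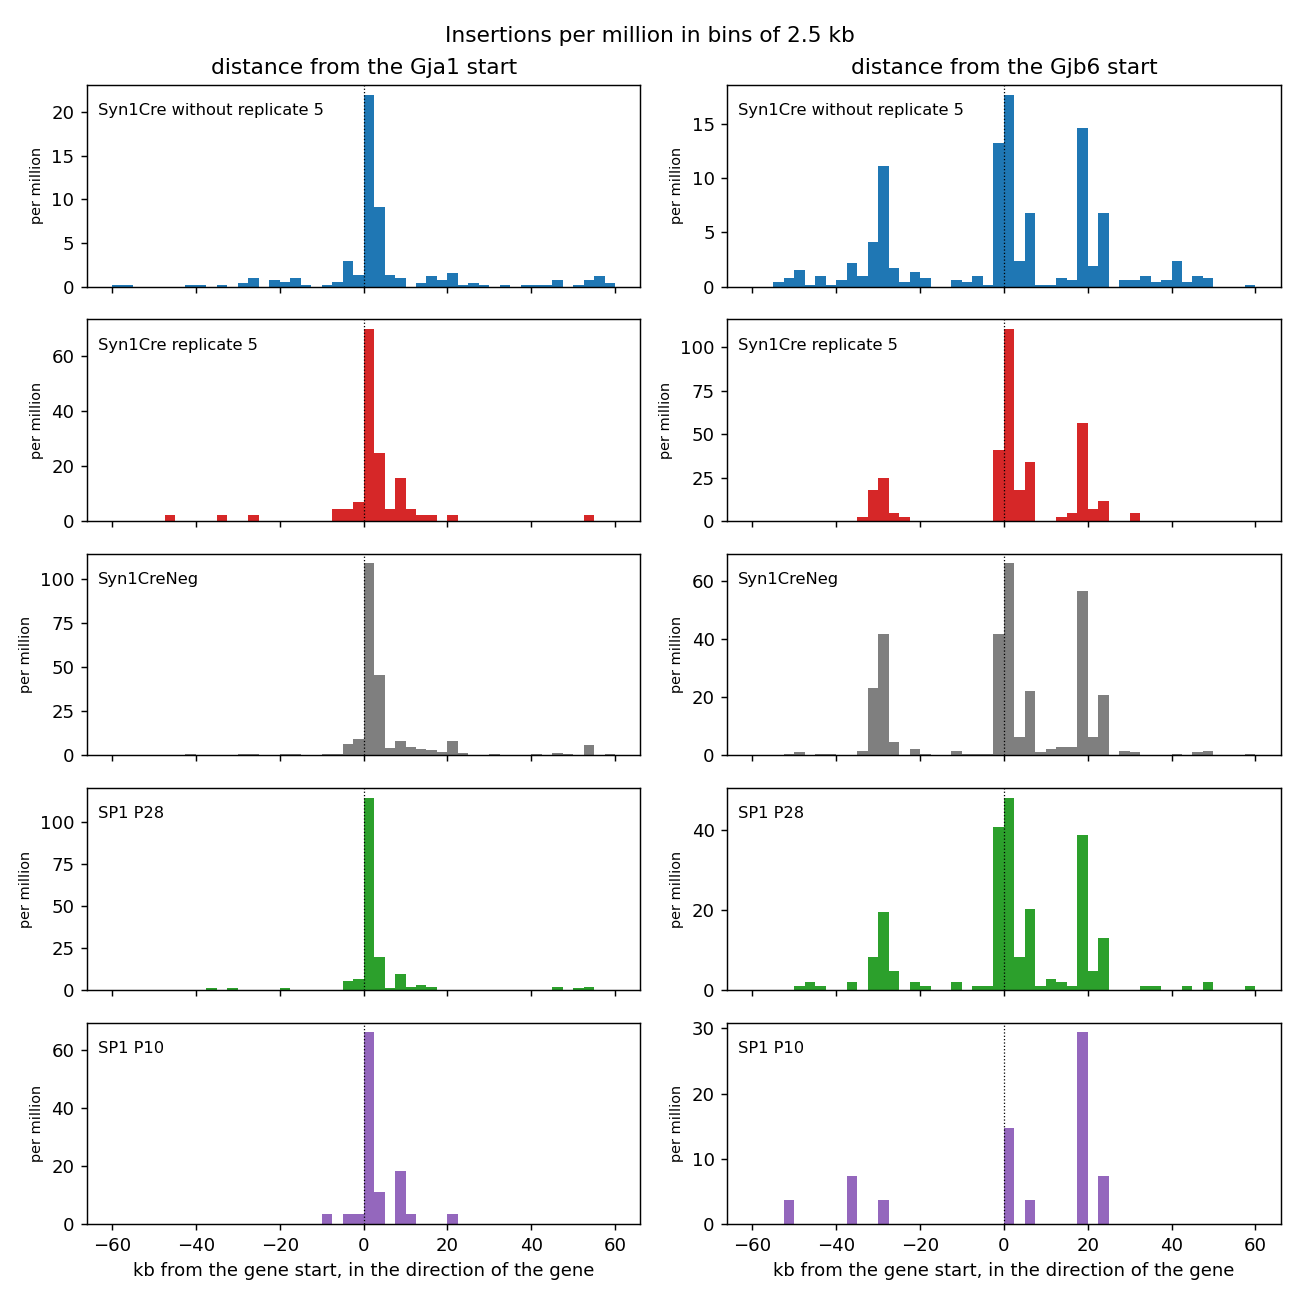
Insertion level (CPM) in bins of 2.5 kb by distance from the Gja1 start (left) and the Gjb6 start (right), in kb in the direction of the gene, for Syn1Cre without replicate 5, Syn1Cre replicate 5, Syn1CreNeg and SP1 at P28 and P10, with insertions and totals summed over the animals of a row and a scale of its own in each panel. The highest Gja1 bin begins at the start in every row. Gjb6 has peaks at its start, past its end and between -35 and -25 kb, and SP1 at P10 has few insertions in all.

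A further cluster lay outside the counted loci, between -35 and -25 kb of the Gjb6 start (chr14:57158612-57168611). This window was chosen after its values were seen. It held 80.8 ± 28.9 CPM in Syn1CreNeg (SD, n = 6), 17.2 ± 4.29 in Syn1Cre without replicate 5 (SD, n = 5), 41.5 ± 15.7 in SP1 at P28 (SD, n = 4) and 3.84 ± 6.65 in SP1 at P10 (SD, n = 3). BrokenHeart animals held 2 insertions there in all.

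Across the groups the connexin loci ranged from no insertion to some of the densest loci of a table. Per kb of locus, Gja1 had 6.15 CPM in Syn1CreNeg, Gjb6 6.72 and Gjb2 1.43, where the median of all loci was 0.272. In that group 99.8% of loci lay below Gja1, 99.8% below Gjb6 and 93.9% below Gjb2. In C57bl6J animals the densities were 0.793, 0.875 and 0.370, and 86.6%, 89.0% and 58.8% of loci lay below. In N2a cells, Gja1 had 1 insertion of 805993, a level of 1.24 CPM (95% exact Poisson interval 0.0314 to 6.91, counting error only), and Gjb2 and Gjb6 had none, which allows up to 3.72 CPM with a floor of 3 insertions.

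**Figure D2:**
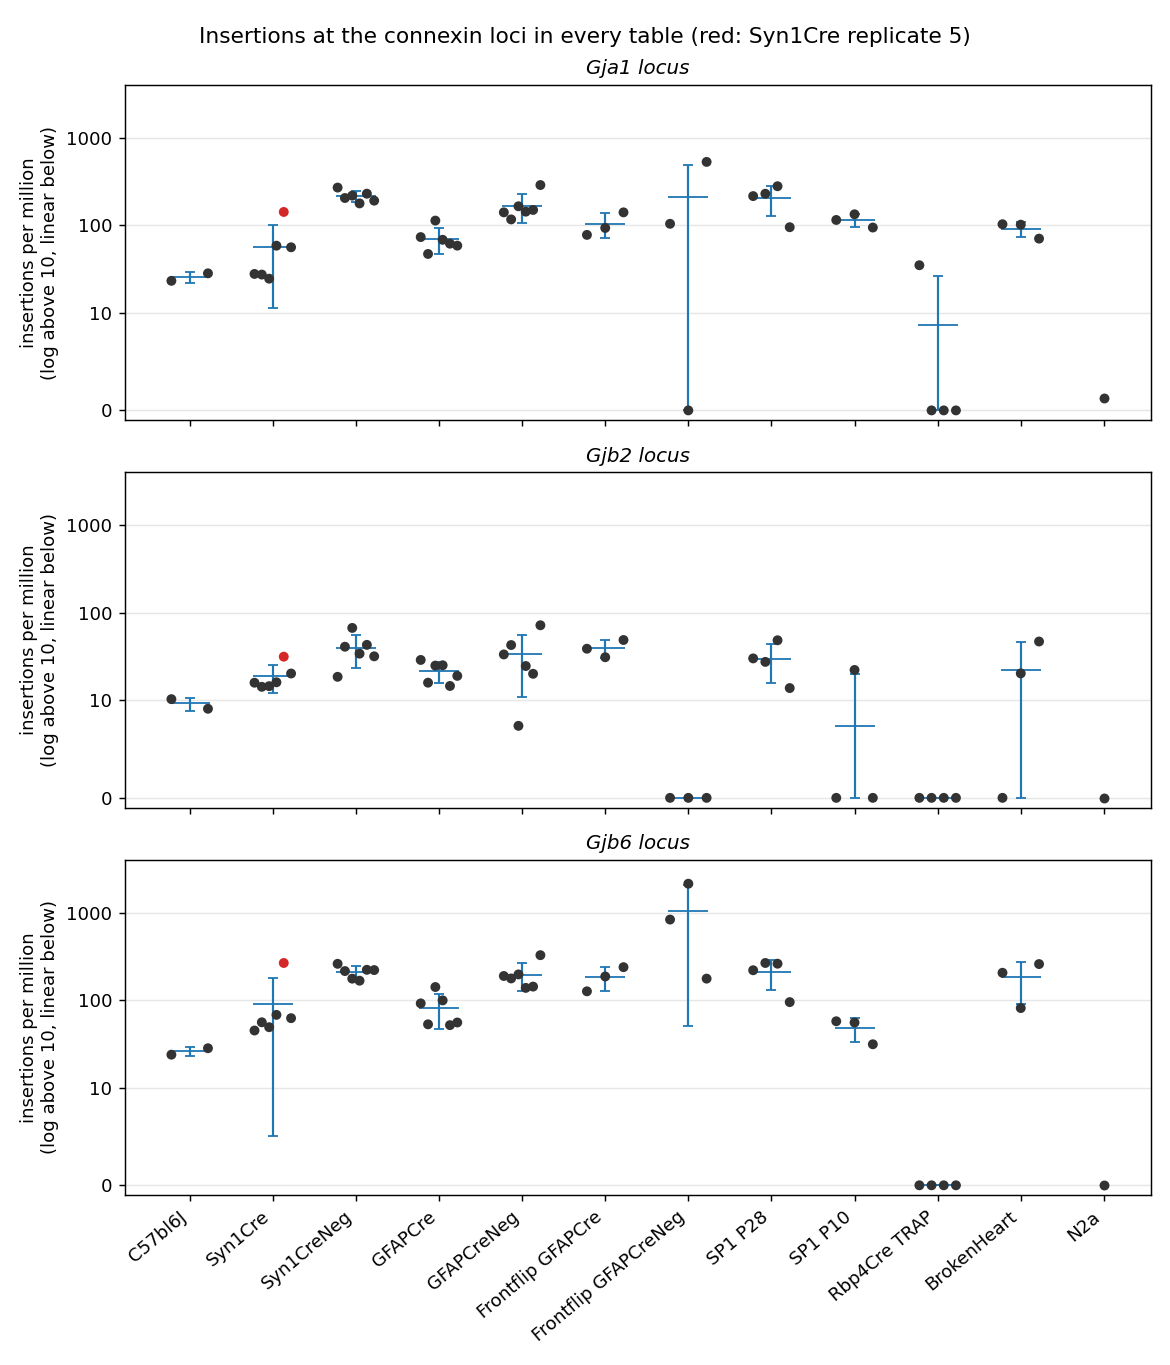
Insertion level (CPM) at the Gja1, Gjb2 and Gjb6 loci, 1 point per table, with the mean and SD of each group as a bar and whiskers (cut at 0), on an axis that is logarithmic above 10 and linear below. At Gja1 the Syn1CreNeg and GFAPCreNeg points lie higher than those of their Cre-positive groups. The ranges overlap at Gjb6 and in the Frontflip groups. The red point, Syn1Cre replicate 5, lies above the other Syn1Cre animals in all panels.

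At Gja1, group means ran from 215 ± 32.5 CPM in Syn1CreNeg (SD, n = 6) to 8.77 ± 17.5 in Rbp4Cre TRAP (SD, n = 4). Between them, in order, were Frontflip GFAPCreNeg at 211 ± 281 (SD, n = 3), SP1 at P28 at 205 ± 78.1 (SD, n = 4), GFAPCreNeg at 167 ± 61.3 (SD, n = 6) and SP1 at P10 at 114 ± 19.6 (SD, n = 3). Frontflip GFAPCre followed at 104 ± 32.8 (SD, n = 3), BrokenHeart at 91.8 ± 18.4 (SD, n = 3), GFAPCre at 70.5 ± 22.8 (SD, n = 6), Syn1Cre at 56.2 ± 44.8 (SD, n = 6) and C57bl6J at 25.8 ± 3.58 (SD, n = 2). No 2 neighbours in this order differed by more than the larger of their SDs. The Frontflip GFAPCreNeg value rests on 4 insertions in tables of 2341 to 9600.

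At Gjb6, Frontflip GFAPCreNeg was highest at 1049 ± 997 CPM (SD, n = 3), from 14 insertions. SP1 at P28 had 211 ± 79.7 (SD, n = 4), Syn1CreNeg 211 ± 34.1 (SD, n = 6), GFAPCreNeg 195 ± 68.7 (SD, n = 6), Frontflip GFAPCre 184 ± 56.1 (SD, n = 3) and BrokenHeart 182 ± 91.0 (SD, n = 3). Lower were Syn1Cre at 91.2 ± 86.2 (SD, n = 6), GFAPCre at 82.4 ± 35.7 (SD, n = 6), SP1 at P10 at 48.3 ± 14.6 (SD, n = 3) and C57bl6J at 26.2 ± 3.12 (SD, n = 2). Rbp4Cre TRAP had no Gjb6 insertion in 171808, which allows up to 17.5 CPM. Of the neighbours in this order, only SP1 at P10 and C57bl6J, and C57bl6J and Rbp4Cre TRAP, differed by more than the larger SD.

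At Gjb2, group means lay lower, from 39.7 ± 8.94 CPM in Frontflip GFAPCre (SD, n = 3) and 39.3 ± 16.2 in Syn1CreNeg (SD, n = 6) to 0 in Frontflip GFAPCreNeg and Rbp4Cre TRAP. With a floor of 3 insertions, 0 allows up to 170 CPM in Frontflip GFAPCreNeg and up to 17.5 in Rbp4Cre TRAP. The place of Frontflip GFAPCreNeg in this order is therefore not known. GFAPCreNeg had 33.5 ± 22.4 (SD, n = 6), SP1 at P28 30.1 ± 14.3 (SD, n = 4), BrokenHeart 22.5 ± 23.6 (SD, n = 3), GFAPCre 21.5 ± 5.76 (SD, n = 6), Syn1Cre 18.8 ± 6.62 (SD, n = 6), C57bl6J 9.75 ± 0.852 (SD, n = 2) and SP1 at P10 7.43 ± 12.9 (SD, n = 3). Among neighbours in that order, the step from Syn1Cre to C57bl6J was the only one above the larger SD. BrokenHeart rests on 4 Gjb2 insertions and SP1 at P10 on 2.

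Syn1Cre replicate 5 is given apart because earlier results of these same values named it, and it was the highest Syn1Cre animal at each connexin locus. Gja1 had 142 CPM in replicate 5 (63 of 443117) and 27.9, 27.4, 24.6, 58.6 and 56.2 in replicates 1, 2, 3, 4 and 6. Gjb6 had 266 CPM in replicate 5 (118 insertions) and 45.2, 56.1, 49.3, 68.1 and 62.5 in the same others. Gjb2 had 31.6 CPM in replicate 5 (14 insertions) and 15.9, 14.3, 14.6, 16.1 and 20.3. The 95% exact Poisson intervals of replicate 5 were 109 to 182 for Gja1, 220 to 319 for Gjb6 and 17.3 to 53.0 for Gjb2, and they cover counting error within this animal only, not the spread between animals.

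The insertions of replicate 5 were spread over the usual sites. Its 118 Gjb6 insertions lay at 32 positions, all used in another table, with at most 11 at 1 position, and 32 of its 33 Gja1 positions were used elsewhere. Without replicate 5, Syn1Cre had 39.0 ± 16.9 CPM at Gja1, 16.3 ± 2.40 at Gjb2 and 56.2 ± 9.37 at Gjb6 (SD, n = 5 each). A list of 15 astrocyte marker loci moved with it: their summed level was 2379 CPM in replicate 5 and 801 to 1068 in the others, with all 15 markers hit in replicate 5. The summed level of 15 neuron markers was 3451 against 3332 to 3809, that of 10 oligodendrocyte lineage markers 298 against 260 to 282, with Mag at 0, and that of 7 microglia markers 99.3 against 96.7 to 104. The 6 endothelial markers summed to 42.9 against 65.6 to 109, with Cldn5 and Slco1a4 at 0. Replicate 5 also had the fewest insertions of its group, against 752631 to 1364850 in the others. The part of these in the connexin levels was not tested.

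Cre-positive and Cre-negative animals were compared by CPM, the share of a table in a locus. This share does not show how far insertions depend on Cre. Gja1 had 178 to 270 CPM in the 6 Syn1CreNeg animals, with a median of 212, and 24.6 to 142 in the 6 Syn1Cre animals, with a median of 42.1. Gjb6 had 167, 218 and 261 CPM (lowest, median and highest) in Syn1CreNeg, and only Syn1Cre replicate 5, the highest at 266, reached that range. In edgeR, the log2 fold changes of Syn1Cre over Syn1CreNeg were -2.03 for Gja1 (SE 0.27), -1.37 for Gjb6 (SE 0.31) and -1.09 for Gjb2 (SE 0.25). All 3 connexins were past the threshold where 31.0% of all 8610 tested loci were. No Syn1Cre animal shared a sequencing pool with a Syn1CreNeg animal, so the pool and Cre cannot be told apart here. In bulk tissue, fewer labelled cells of a type and fewer insertions per cell cannot be told apart.

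The count of connexin insertions and the total of the table behaved differently in that comparison. Syn1Cre replicates 1 to 3 held 21, 23 and 22 Gja1 insertions in tables of 752631 to 892831, and Syn1CreNeg replicates 1 to 3 held 29, 20 and 26 in tables of 97498 to 119025. Gjb6 insertions were 34, 47 and 44 against 28, 21 and 21. The higher CPM of the Cre-negative animals at Gja1 thus came with like numbers of insertions and smaller totals. Replicates 4 to 6 of Syn1CreNeg held 99, 96 and 90 Gja1 insertions and Syn1Cre replicates 4 and 6 held 80 and 72. The summed astrocyte marker level was 2591 to 3210 CPM in Syn1CreNeg and 801 to 2379 in Syn1Cre, and its part was not tested.

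**Figure D3:**
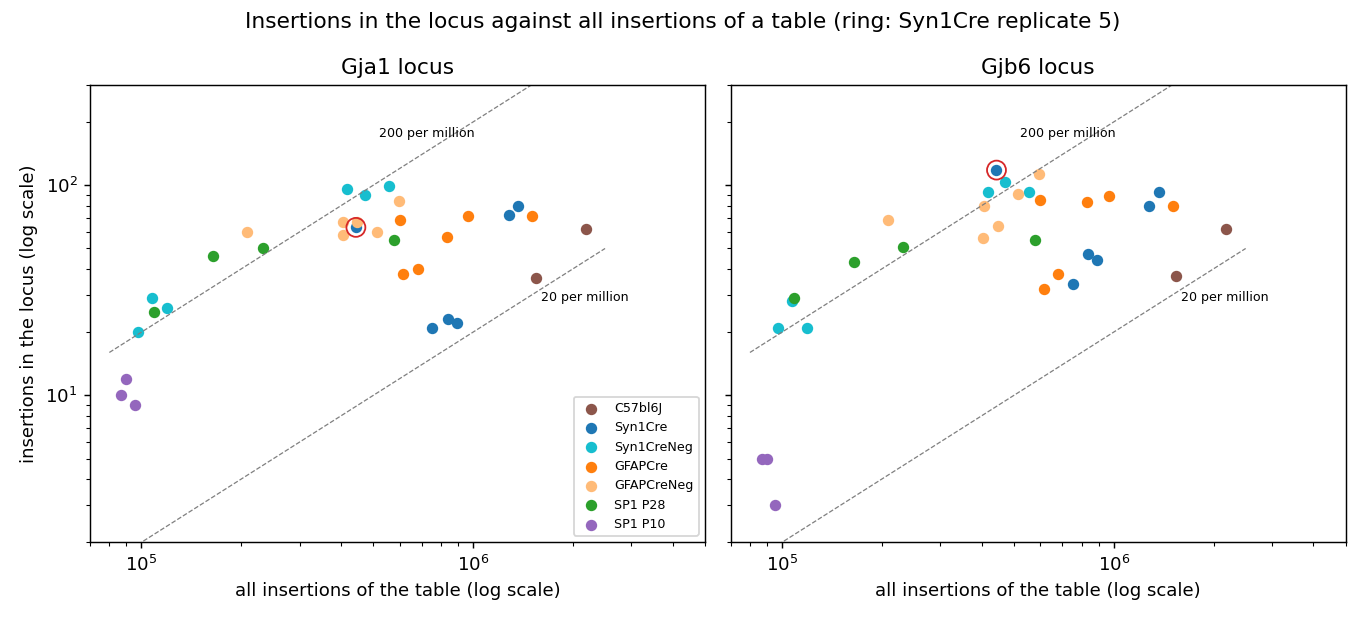
Insertions in the Gja1 and Gjb6 loci (vertical, log scale) against all insertions of the table (horizontal, log scale), 1 point per animal, with dashed lines at 20 and 200 CPM. Syn1CreNeg and 3 of 4 SP1 P28 animals lie near the upper line, C57bl6J lies near the lower one, and the ringed point is Syn1Cre replicate 5.

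GFAPCre showed the same order against its Cre-negative animals. Gja1 ran from 47.2 to 113 CPM with a median of 65.1 in 6 GFAPCre animals and from 117 to 288 with a median of 147 in 6 GFAPCreNeg animals. Gjb6 ran from 52.0 to 142 with a median of 73.9 against 138 to 327 with a median of 183, and the ranges met only at their ends. The log2 fold changes of GFAPCre over GFAPCreNeg were -1.20 for Gja1 (SE 0.18), -1.21 for Gjb6 (SE 0.20) and -0.52 for Gjb2 (SE 0.28), and 2 of the 3 were past the threshold, where 8.11% of 9201 loci were. GFAPCreNeg replicate 6 was highest, at 288, 72.1 and 327 CPM for Gja1, Gjb2 and Gjb6, in the smallest table of its group (208046 insertions). Its astrocyte markers summed to 3600 CPM against 1747 to 2144 in the other 5 animals. With pools kept as a block, only GFAPCre replicates 4, 5 and 6 and GFAPCreNeg replicates 1, 3, 4 and 6 entered. The others shared no pool with an animal of the other group and were dropped. In that fit 37 loci passed the threshold in place of 746, and the block and the fewer animals cannot be told apart. Gja1 lay at -1.37 (SE 0.22), Gjb6 at -1.47 (SE 0.25) and Gjb2 at -0.55 (SE 0.43) there, as a description.

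The comparison of the Cre lines depended on which Syn1Cre animals entered. The log2 fold changes of Syn1Cre over GFAPCre were -0.45 for Gja1 (SE 0.30), -0.30 for Gjb2 (SE 0.22) and -0.05 for Gjb6 (SE 0.34), and 0 of 3 were past the threshold, where 2.15% of 11550 loci were. Without Syn1Cre replicate 5 the log2 fold changes were -0.76 for Gja1, -0.41 for Gjb2 and -0.54 for Gjb6, and 847 loci in all were past the threshold. With only Syn1Cre replicates 1 to 3, Gja1 lay at -1.47 (SE 0.22), Gjb6 at -0.79 (SE 0.23) and Gjb2 at -0.63 (SE 0.26). In that fit 1634 loci in all were past the threshold. Syn1Cre replicates 1 to 3 had 2329351 to 3296669 reads, against 9156081 to 15255197 in replicates 4 to 6 and 5255881 to 19960706 in GFAPCre. The part of read depth was not tested. No Syn1Cre animal shared a pool with a GFAPCre animal. This comparison and that of Syn1Cre with Syn1CreNeg share the Syn1Cre animals, and the Gja1 values side by side are -0.45 and -2.03.

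SP1 is a zinc finger transcription factor that binds GC-rich promoters. SP1 animals at P28 held 216, 230, 280 and 95.2 CPM at Gja1 and, at Gjb6, 220, 266, 261 and 95.2. Replicates 1 to 3 were close together, and replicate 4 lay below them at both genes. At P10 the animals held 115, 134 and 94.4 at Gja1, from 10, 12 and 9 insertions, and 57.6, 55.7 and 31.5 at Gjb6, from 5, 5 and 3 insertions. The ages overlapped at Gja1 through P28 replicate 4. Gjb2 had 30.2, 27.5, 48.6 and 13.8 CPM at P28, and 2 insertions, both in replicate 2, at P10, where none in a replicate of 86829 allows up to 34.6 CPM.

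The log2 fold change of P28 over P10 was 2.07 for Gjb6 (SE 0.42) and 0.81 for Gja1 (SE 0.34). Gjb2 did not pass the filter on low counts. Of the 2 connexins tested 1 was past the threshold, where 11.1% of 3458 loci were. That was Gjb6, which passed the filter only through the P28 animals, where it was high, so its call is a description and no test. Counted at distinct positions, the values were 1.55 for Gjb6 and 0.04 for Gja1. P28 replicate 4 had the largest table (577463 insertions) and summed astrocyte markers of 1278 CPM, against 2113 to 2631 in replicates 1 to 3 and 1070 to 1315 at P10. Without it, P28 had 242 ± 33.6 CPM at Gja1 and 249 ± 25.4 at Gjb6 (SD, n = 3 each), and the log2 fold changes over P10 were 1.15 and 2.41. P28 replicates 2, 3 and 4 shared sequencing pools with P10, and with these alone Gja1 lay at 0.76 (SE 0.36), while Gjb6 did not pass the filter. The part of the astrocyte markers and of depth was not tested.

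Against Syn1Cre animals, SP1 at P28 had log2 fold changes of 1.34 for Gja1 (SE 0.37), 0.70 for Gjb6 (SE 0.40) and -0.02 for Gjb2 (SE 0.35), and 1 of 3 was past the threshold, where 51.5% of 12050 loci were. Without Syn1Cre replicate 5, Gja1 lay at 1.65 and Gjb6 at 1.21. Scaled by total insertions in place of TMM, the values at P28 were 1.83 for Gja1 (SE 0.35), 1.204 for Gjb6 (SE 0.38) and 0.46 for Gjb2 (SE 0.36). This scaling also raised the median log2 fold change of all loci, as given further on. SP1 at P10 had 0.59 for Gja1 (SE 0.56), -1.32 for Gjb6 (SE 0.79) and -1.79 for Gjb2 (SE 0.88), and 0 of 3 were past the threshold, where 40.8% of 12858 loci were. Scaled by total insertions, these were 1.14 (SE 0.52), -0.76 (SE 0.74) and -1.26 (SE 0.92). Summed astrocyte markers were 2111 ± 595 CPM at P28 (SD, n = 4), 1194 ± 122 at P10 (SD, n = 3) and 1170 ± 601 in Syn1Cre (SD, n = 6). Microglia markers summed to 164 to 211 CPM at P28 and 196 to 315 at P10, against 96.7 to 104 in Syn1Cre, with Cx3cr1, Csf1r and Tmem119 at 0 at P10. Neuron markers summed to 3020 to 3187 CPM at P28 and 2856 to 3295 at P10, against 3332 to 3809. The part of these markers was not tested. The comparisons share the Syn1Cre animals. SP1 and Syn1Cre animals were sequenced in separate pools, which cannot be told apart from the groups.

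The rule chose the members by totals of a locus and not by where insertions lay in it, so the share within 1 kb of the gene start was tested by exact permutation of the animals, two-sided. The share is drawn from the same insertions as those totals, so it may not be independent of the choice. Of 9 planned tests 7 could be made, since only 1 P10 animal had Gjb2 insertions. At Gja1 the share was 50%, 64.0%, 69.6% and 58.2% in SP1 animals at P28 (25 of 50, 16 of 25, 32 of 46 and 32 of 55 insertions). In Syn1Cre replicates 1 to 6 it was 52.4%, 34.8%, 54.5%, 31.3%, 36.5% and 37.5%. The difference was 19.3 percentage points (60.4% ± 8.37, SD, n = 4, against 41.2% ± 9.79, SD, n = 6; exact permutation p = 0.0190, adjusted p = 0.133 over 7 tests). It did not pass after adjustment. The ranges overlapped, as P28 replicate 1 lay below Syn1Cre replicates 1 and 3.

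The site chr10:56377302-56377305, 2 bases after the annotated start, took 30 of the 176 Gja1 insertions of SP1 at P28 and 9 of 281 in Syn1Cre, and was chosen for mention after its values were seen. At distinct positions the Gja1 difference was 9.41 points (exact p = 0.219), and without P28 replicate 2 or 3 it was 18.1 or 16.2 points and the exact p no longer passed. SP1 at P10 had a Gja1 share of 56.7% ± 20.3 (SD, n = 3), 15.5 points above Syn1Cre (exact permutation p = 0.202, adjusted p = 0.354) and 3.77 points below P28 (exact permutation p = 0.829, adjusted p = 0.829).

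The Gjb6 share near the start was 34.3% ± 5.17 at P28 (SD, n = 4) and 32.7% ± 7.87 in Syn1Cre (SD, n = 6), a difference of 1.56 points (exact permutation p = 0.738, adjusted p = 0.829). At P10 it was 17.8% ± 16.8 (SD, n = 3), from 2 of 13 insertions, a difference from Syn1Cre of -14.95 points (exact permutation p = 0.107, adjusted p = 0.267). None of the P10 insertions lay at the promoter site of Gjb6, which held 31 insertions at P28. P28 lay 16.5 points above P10 (exact permutation p = 0.114, adjusted p = 0.267), where the smallest p the design allows is 0.0286. At Gjb2 the share was 0% at P28 and 3.31% ± 3.94 in Syn1Cre (SD, n = 6; exact permutation p = 0.300, adjusted p = 0.420).

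**Figure D4:**
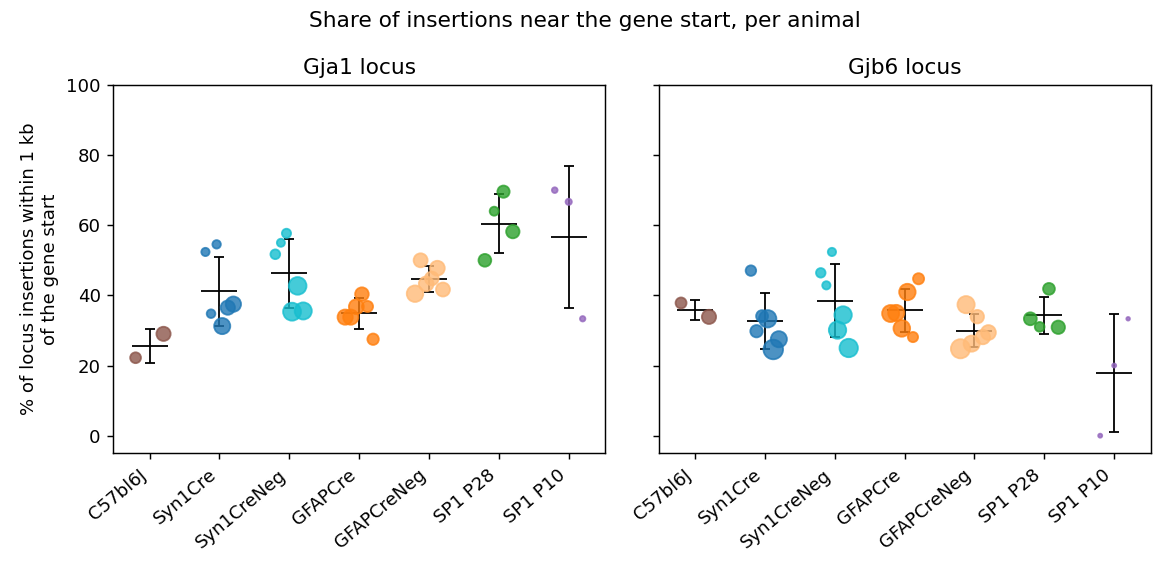
Share of locus insertions within 1 kb of the gene start (percent) at Gja1 and Gjb6, 1 point per animal with an area set by the number of insertions in the locus, and the mean and SD of each group in black. At Gja1 the SP1 P28 animals lie at 50% to 69.6% and the Syn1Cre animals at 31.3% to 54.5%.

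BrokenHeart, read from DNA, held 6, 10 and 3 Gja1 insertions, or 103, 102 and 70.6 CPM, and 12, 8 and 11 Gjb6 insertions, or 206, 81.5 and 259 CPM. C57bl6J held 23.3 and 28.4 at Gja1 and 23.9 and 28.4 at Gjb6. The log2 fold changes were 1.79 for Gja1 (SE 0.47) and 2.49 for Gjb6 (SE 0.42). Both connexins tested were past the threshold, where 39.9% of 1878 loci were, and Gjb2 did not pass the filter. Gja1 and Gjb6 passed the filter only through the BrokenHeart animals, where they were high, so their calls are a description and no test. The summed astrocyte markers were 866 to 1529 CPM in BrokenHeart and 661 to 696 in C57bl6J. Microglia markers summed to 118 to 163 against 76.8 to 82.8, and endothelial markers to 141 to 173 against 88.3 to 91.9. Neuron markers were lower, at 1717 to 2179 against 2918 to 3037, and oligodendrocyte lineage markers at 165 to 206 against 219 to 230. Mag, Tmem119 and C1qa were at 0 in BrokenHeart. The part of these markers was not tested. Readout and virus design differ together here and cannot be told apart.

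The other gap junction genes reported here were further connexin and pannexin genes and the partners Tjp1 and Cnst, 21 in all, of which 1 to 11 passed the filter in a comparison. This list was chosen with earlier results known. For Syn1Cre against GFAPCre, 0 of 8 tested passed the threshold (edgeR, 3 at an unadjusted p under 0.05, 0 in DESeq2), from Gjd3 at 0.82 (SE 0.27, adjusted p = 0.113) to Gja6 at -0.25 (SE 0.17, adjusted p = 0.471). Of all loci 2.15% were called there in edgeR. Scaled by total insertions, without Syn1Cre replicate 5 or without GFAPCre replicate 2, 1 passed. The list's median log2 fold change was 0.10, where that of all loci was -0.002.

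For Syn1Cre against Syn1CreNeg 1 of 8 was higher and 1 was lower, where 31.0% of all loci were called. With no filter on low counts 4 of 21 were higher and 0 lower. Gjc1, the gene of Cx45, was higher in Syn1Cre (log2 fold change 1.12, SE 0.23, edgeR adjusted p = 6.17e-04). It passed the filter only through the Syn1Cre animals, where it was high, so this call is a description and no test. Tjp1, which encodes the scaffold protein ZO-1 that holds connexins at the membrane, was lower (-0.34, SE 0.12, edgeR adjusted p = 0.0336). The Tjp1 call was lost without Syn1CreNeg replicate 4, 5 or 6, without Syn1Cre replicate 1, 3, 4 or 6, and with no filter, at adjusted p from 0.0679 to 0.0928. The list's median was 0.41, where that of all loci was 0.015. For GFAPCre against GFAPCreNeg 0 of 6 passed in edgeR, with 1 at an unadjusted p under 0.05 and 0 of 5 in DESeq2, from Panx2 at 0.20 (SE 0.26, adjusted p = 0.696) to Tjp1 at -0.25 (SE 0.10, adjusted p = 0.119). Of all loci 8.11% were called there in edgeR. The list's median was -0.04, where that of all loci was 0.02.

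With SP1 at P28 against Syn1Cre 0 of 9 were higher and 3 were lower, where 51.5% of all loci were called. Gjc1 fell by 1.36 on the log2 scale (SE 0.30, edgeR adjusted p = 4.50e-04), Gja6 by 1.01 (SE 0.29, adjusted p = 0.00569) and Tjp1 by 0.73 (SE 0.17, adjusted p = 8.19e-04). Gjc1 and Gja6 passed the filter only through the Syn1Cre animals, where they were high, so their calls are a description and no test. The highest was Panx2 at 0.53 (SE 0.25, adjusted p = 0.0773). With SP1 at P10 against Syn1Cre 2 of 11 were higher and 4 were lower, where 40.8% of all loci were called. Gja4, the gene of the endothelial connexin Cx37 (2.26, SE 0.50, edgeR adjusted p = 7.78e-04), and the pannexin gene Panx2 (1.23, SE 0.34, adjusted p = 0.00539) rose. At P10 they held 13 and 21 insertions, and Gja4 passed the filter only through the P10 animals, where it was high. Endothelial markers summed to 48.3 ± 29.7 CPM at P10 (SD, n = 3) and 73.2 ± 21.4 in Syn1Cre (SD, n = 6). Cldn5, Kdr and Slco1a4 were at 0 at P10, and the part of these markers was not tested. Gja6 (-2.30), Panx3 (-1.99), Tjp1 (-1.94) and Gjc1 (-1.63) fell, and 2, 3, 36 and 5 insertions at P10 stand behind these. Gja6, Panx3 and Gjc1 passed the filter only through the Syn1Cre animals, where they were high, so their calls are a description and no test. The list's medians were -0.67 at P28 and -0.86 at P10, where those of all loci were -0.058 and -0.28.

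The falls in the SP1 comparisons depended on the scaling. Scaled by total insertions, the median log2 fold change of all loci went from -0.058 to 0.42 at P28 and from -0.28 to 0.27 at P10. The share of called loci that were higher went from 50.8% to 80.4% at P28 and from 48.1% to 76.1% at P10. Of the gap junction list 1 of 9 was then higher and 1 lower at P28, and 3 of 11 higher and 1 lower at P10. The calls of Gja6 (adjusted p = 0.172) and Tjp1 (adjusted p = 0.206) at P28 and of Gja6, Gjc1 and Panx3 at P10 (adjusted p from 0.0735 to 0.123) were lost. At distinct positions 1 of 7 was lower at P28, and the calls of Gja6 (adjusted p = 0.0697) and Tjp1 (adjusted p = 0.179) were lost. Without the 10 kb flanks the P28 calls of Gjc1, Gja6 and Tjp1 were lost (adjusted p from 0.131 to 0.366), and some P10 calls of Gja6, Gjc1 and Panx3 were also lost without a P10 animal. Between the ages Tjp1 was the only gene of the list tested, and it rose (1.26, SE 0.27, edgeR adjusted p = 0.00576), where 11.1% of all loci were called. Without P10 replicate 2 or 3 the Tjp1 call was lost (adjusted p = 0.0522 and 0.0693). For BrokenHeart against C57bl6J 0 of 2 passed in edgeR, with 0 at an unadjusted p under 0.05 and 0 of 5 in DESeq2, with Cnst at 0.48 (SE 0.40, adjusted p = 0.338) and Tjp1 at 0.04 (SE 0.21, adjusted p = 0.910). Of all loci 39.9% were called there in edgeR.

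**Figure D5:**
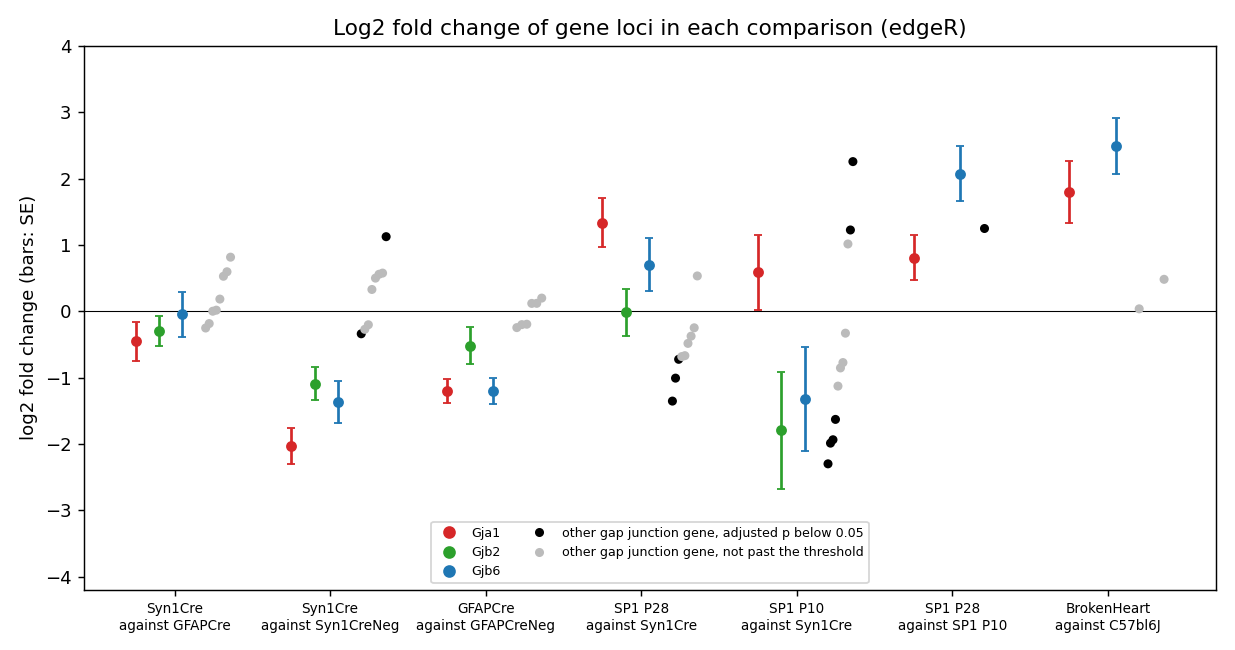
Log2 fold changes (vertical) in each comparison for Gja1, Gjb2 and Gjb6, coloured with SE bars, and for the other gap junction genes tested, black where the edgeR adjusted p was under 0.05 and grey otherwise. The connexin loci lie below 0 in both comparisons with Cre-negative animals, and the highest black points of SP1 at P10 against Syn1Cre are Gja4, at 2.26, and Panx2, at 1.23.

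The neighbours of the connexin genes had other levels across the Cre groups. Tbc1d32, the only other protein-coding gene within 200 kb of Gja1, had 78.4 ± 17.1 CPM in Syn1CreNeg and 74.0 ± 15.8 in Syn1Cre (SD, n = 6 each). Near Gjb2 and Gjb6, Cryl1 had 54.5 ± 8.75 against 50.6 ± 8.75, and Zmym2 30.4 ± 16.4 against 26.8 ± 8.26 (SD, n = 6 each). Gja3, the gene of a lens connexin on the same chromosome, had 5.82 ± 7.34 against 11.6 ± 1.64 (SD, n = 6 each), from 6 and 65 insertions. Gm36789 and B020004C17Rik held 1 insertion each in Syn1Cre and none in Syn1CreNeg. With SP1, Cryl1 had 88.5 ± 6.88 CPM at P28 (SD, n = 4) and 143 ± 24.0 at P10 (SD, n = 3). In the same order, Tbc1d32 had 42.6 ± 19.4 and 33.1 ± 19.1, and Zmym2 29.8 ± 7.61 and 14.9 ± 25.7. These differences were not tested.

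Over the 26 animals of C57bl6J, Syn1Cre, Syn1CreNeg, GFAPCre and GFAPCreNeg, the level of Gjb6 followed that of Gja1 (Pearson r of log2(CPM + 1) 0.95, 0.96 without Syn1Cre replicate 5), and Gjb2 followed them less closely (0.68 and 0.70). Among 2267 loci with a mean of 50 or more insertions, those most like Gja1 were Slco1c1, Dbx2, Slc7a11, Pamr1 and S1pr1 (r from 0.97 to 0.98). Those most like Gjb6 were Ptn, Gramd3, Fam13c, Hapln1 and Dio2 (r from 0.97 to 0.98). The animals share groups, pools and depth, and these correlations describe them only.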

How the data were processed

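Per the labels' protocols, calling card insertions were recovered from mouse tissue, and the authors deposited 1 table of insertions per animal with a read count per insertion. The submitters' processing notes name the build mm10 and the tools Novoalign and Bowtie2, without a role or version. Here each row was counted as 1 insertion, whatever its reads, on chromosomes 1 to 19 and X (other chromosomes held at most 0.0818% of a table). Depth was 2341 to 2186559 insertions per table, and intervals and floors cover counting error only. Insertions were counted in 21627 protein-coding gene bodies with 10 kb on each side (RefSeq, GRCm38.p6). Where the labels do not say that animals came from separate litters, p-values measure the spread between these samples.

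Levels are insertions on a per-million scale (CPM). Groups were compared in edgeR 4.0.16 (quasi-likelihood test, TMM, filter on low counts, limma 3.58.1, R 4.3.3), each with the animals of its own 2 groups, with Benjamini-Hochberg adjustment over all loci tested and a threshold of 0.05, and DESeq2 1.42.0 as an alternative. Shares near the gene start used exact permutation tests over animals (scipy 1.17.1). The tests were tested on simulated data. Alternatives were scaling, filter, distinct positions, gene bodies alone, a replicate or pool block and each animal left out. Named genes are the 3 members, the gap junction genes past the threshold and the highest and lowest of each comparison, their neighbours within 200 kb and the 5 loci most like Gja1 and Gjb6. The members and lists were chosen with earlier results of these data known. Some genes of the gap junction list are not reported here and were left out of its counts whatever their values, while fits and adjusted p-values kept all loci.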

Additional observations from a re-analysis of the deposited data

Results flagged for a closer look

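Of 29 sets of values looked at (the level or the start share of 1 connexin in a group of 4 to 6 animals), 6 held a value whose gap to the rest passed Dixon's critical value, all of them levels. They come from 3 animals. These levels are the values that chose the connexins and named Syn1Cre replicate 5, so they are a description and no test, and chance alone flags some sets. Syn1Cre replicate 5 had 142.2 CPM at Gja1 (24.64 to 58.61 in the others), 31.59 at Gjb2 (14.31 to 20.3) and 266.3 at Gjb6 (45.17 to 68.14). GFAPCreNeg replicate 6 had 288.4 at Gja1 (116.9 to 165.1) and 326.9 at Gjb6 (138.4 to 197.2). Rbp4Cre TRAP replicate 1 had 35.08 at Gja1, from 2 insertions, where the other 3 animals had none. A count of 0 in those animals allows up to 59.6, 74.89 and 122.9 CPM, so at this depth no difference was detectable.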

How the results depend on the processing

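No direction of a called value reversed in the alternatives run. Main counts of loci past the threshold were 248 (Syn1Cre against GFAPCre), 2668 (Syn1Cre against Syn1CreNeg), 746 (GFAPCre against GFAPCreNeg), 6211 and 5249 (SP1 at P28 and P10 against Syn1Cre), 385 (P28 against P10) and 749 (BrokenHeart against C57bl6J). At distinct positions they were 136, 1768, 471 and, for P28, 3861 and 210 against Syn1Cre and P10. With gene bodies alone they were 2837 and 2335 for P28 and P10 against Syn1Cre and 196 for P28 against P10, where DESeq2 gave 171. Syn1Cre replicates 1 to 3 alone gave 1634 against GFAPCre, the pool block 37, and no filter 1251 for BrokenHeart. Leaving out each animal gave 128 (without Syn1Cre replicate 2) to 847 (without Syn1Cre replicate 5) for Syn1Cre against GFAPCre, 2056 to 3260 against Syn1CreNeg, 386 (without GFAPCre replicate 2) to 1119 (without GFAPCre replicate 3) for GFAPCre against GFAPCreNeg, and 5626 to 6583 and 4136 to 5507 for P28 and P10 against Syn1Cre. For P28 against P10 it gave 7 (without P10 replicate 3) to 538, with 142 and 98 without P10 replicates 1 and 2 and 166 without P28 replicate 1. For BrokenHeart it gave 355 and 373 without C57bl6J replicates 2 and 1, to 893.

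Shares near the start of Gja1 at P28 minus Syn1Cre were 9.414 points at distinct positions. Gja1 at P10 minus Syn1Cre was 20.24 at distinct positions. With a window of 2 kb, Gjb6 was -24.09 for P10 minus Syn1Cre and 26.85 for P28 minus P10. Leaving out each animal, the Gja1 share gave 16.23 to 22.75 for P28 and 8.839 to 27.17 for P10 minus Syn1Cre and -7.897 to 10.44 for P28 minus P10. Gjb6 gave -0.9655 to 4.427, -22.72 to -6.058 and 7.618 to 24.28 in that order, and Gjb2 gave -3.974 to -2.308 for P28 minus Syn1Cre. Same-numbered animals did not deviate together in every pair of any comparison, so the numbers were not taken to pair animals. With so few pairs this rule cannot exclude a pairing. With the replicate block the counts were 191, 2317, 631, 6067, 5208, 539 and 349 in the order above, and 349 differs from 749 by over 1.5 times. Scaled by total insertions, the share of calls that were higher went from 66.5% to 44.4% for P28 against P10. The settings of the named gap junction genes were chosen after seeing the data. The causes were not tested. Few insertions per locus at P10 and in BrokenHeart limit what could be seen there.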
